A study of Ceratopteris richardii with 15 samples.

Results

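The growing tip of the shoot was compared with mature leaf in sporophytes of the fern Ceratopteris richardii. The groups were shoot tip and leaf from which the tip had been removed, with 3 libraries each. All plants were wild type RNWT1, grown from spores on 1/2MS medium and sampled at 50 days. The full table holds 88641 genes in 15 libraries of 5 tissues, which also include leaf tip, root tip and root without its tip. Genes at 1 TPM or more in 3 or more of the 6 shoot tip and leaf libraries were taken, which gave 32981 genes, 37.2% of the table. TPM is transcript abundance corrected for gene length and expressed relative to a fixed library total.

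Ceratopteris richardii is a homosporous fern that serves as a laboratory model of fern development. The fern shoot grows from an apical cell at its summit, and cells cut off around it form the stem and the young leaves. A shoot tip sample therefore holds dividing and differentiating cells, while an expanded leaf is mainly photosynthetic tissue with veins and epidermis. In land plants, mature leaves are known for very abundant transcripts of photosynthesis genes, such as those of the small subunit of Rubisco and of the chlorophyll-binding proteins of the light-harvesting antennae.

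Genes carry assembly identifiers of the Trinity form, with no name, and 0 of them matched the 36816 genes of the reference table used for names. The tissue labels could therefore not be checked against marker genes, no pathway could be counted, and no sequence is shown. The prefix of an identifier is a tissue code like that of the library columns (SHA shoot tip, LE leaf, LA leaf tip, RT root tip, RO root). Each library sums to 1000000 TPM up to rounding, so read depth is unknown. The labels do not say whether replicates came from separate plants, and p-values measure only how far these libraries spread, which could be technical variation. In whole-tissue RNA, fewer cells of a type and less RNA per cell cannot be told apart.

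Replicates lay close together and the tissues far apart. Across the 32981 genes, log2(TPM + 1) correlated at 0.991 to 0.994 between shoot tip libraries and at 0.995 between leaf libraries. A shoot tip library and a leaf library correlated at 0.709 to 0.714 only. These are correlations across genes, which are not independent replicates. From 101 to 283 genes differed by 2-fold or more between replicates of a tissue. No shoot tip or leaf library stood apart from its group.

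About 30% of the genes were called between the tissues under each of 2 scalings of the libraries. A gene was called when its adjusted p was under 0.05 and its fitted change at least 2-fold, on the log2(TPM + 1) scale, where the change of low genes is understated. In shoot tip 5821 genes (17.6% of those tested) were higher and 4069 (12.3%) were lower than in leaf, with TPM as deposited and also with median-ratio scaling, which sets the typical gene equal between libraries. Their median log2 difference as deposited was 2.07 for the higher genes and -1.70 for the lower genes, beside 0.56 for all tested genes. The 5821 are all the genes called higher after median-ratio scaling, and the 4069 all those called lower as deposited. The other scaling thus removed no gene from either list. Median-ratio scaling lowered shoot tip values and raised leaf values, so the direction of the shift largely set this outcome. With quantile normalization required as well, 5031 of the higher and 4066 of the lower genes kept their call. A pseudocount of 5 in place of 1 gave 2739 higher and 2498 lower. Another 15978 genes (48.4%) stayed under a 2-fold difference under both scalings. The values of the tissues did not overlap for 28869 of the tested genes (87.5%), many more than the 14479 called as deposited (43.9%), so a lack of overlap is not particular to the called genes. Of the calls under both scalings, 2826 higher and 947 lower genes passed the filter only through the tissue where they were high. Among the 23709 genes at 1 TPM or more in all 6 libraries, 2645 were higher and 2871 lower under both scalings. As deposited alone 6217 of them were higher and 2871 lower, so the order turned only with the scaling.

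**Figure D1:**
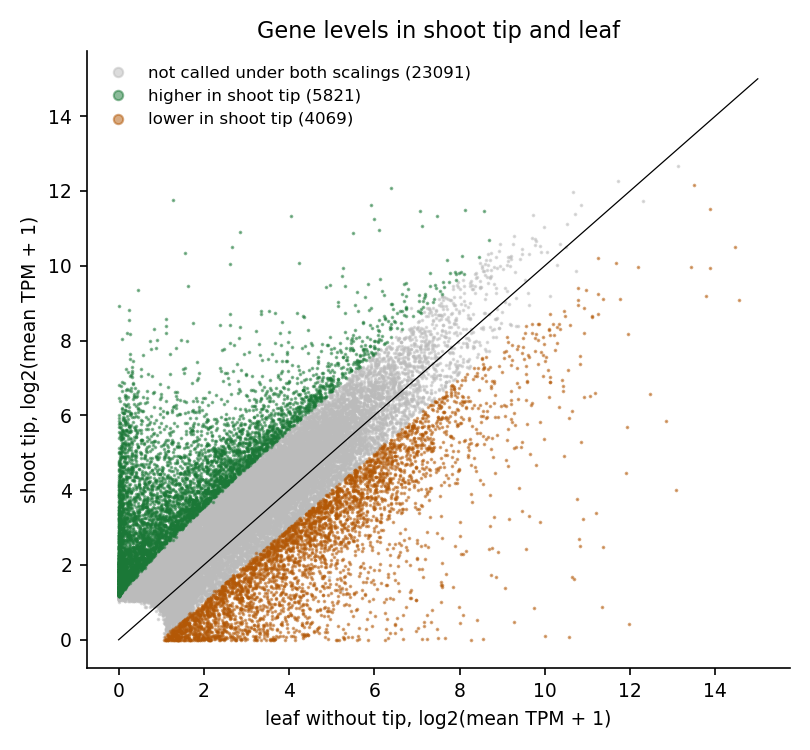
Each point is a tested gene, with its mean level in leaf on the horizontal axis and in shoot tip on the vertical axis, as log2(mean TPM + 1) over 3 libraries. Green points are the 5821 genes higher and orange points the 4069 genes lower in shoot tip under both scalings, and the line marks equal levels. The genes on the far right, the most abundant in leaf, lie mainly below the line.

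How many genes counted as higher in shoot tip depended on the scaling. As deposited 10410 genes (31.6%) were higher and 4069 (12.3%) lower, so that 71.9% of the calls were higher in shoot tip. Median-ratio scaling shifted the log2 differences by a median of -0.55 and turned this balance, with 5821 genes (17.6%) higher and 6578 (19.9%) lower, or 46.9% higher. Its calls came to 37.6% of the tested genes in all. Quantile normalization gave 48.2% higher. No gene had opposite calls as deposited and after median-ratio scaling, but this could not have come out otherwise. Median-ratio scaling divided shoot tip values by 1.246 to 1.258 and leaf values by 0.7867 to 0.8107. That shift is too small to carry a gene from a call in a direction to the opposite call. These scalings differed over 4589 genes called higher only as deposited and 2509 called lower only after median-ratio scaling. The 4589 genes made up 20.8% ± 0.10 of shoot tip TPM and 8.27% ± 0.082 of leaf TPM (SD, n = 3), so the scaling decides the call of a large group. TPM alone gives relative amounts, and which scaling is nearer to transcript numbers per cell was not tested.

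Large changes occurred in both directions. Under both scalings 2038 genes were at least 4-fold higher and 1515 at least 4-fold lower in shoot tip. At 16-fold these counts were 428 and 254, and at 64-fold they were 52 and 62. At 256-fold they were 5 and 14. The order at 64-fold depended on the scaling, since as deposited 81 genes were higher and 62 lower, while at 256-fold the counts as deposited were 7 and 14.

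Among the most abundant genes, those lower in shoot tip outnumbered those higher, both as deposited and after median-ratio scaling. Genes were grouped by their mean TPM over the 6 libraries. Among the 16460 genes at 1 to 10 TPM, 18.8% were higher and 9.9% lower in shoot tip under both scalings. Of the 13144 genes at 10 to 100 TPM, 15.9% were higher and 14.3% lower. Neither scaling alone was even in this class, with 31% higher and 14.3% lower as deposited and 15.9% and 24.1% after median-ratio scaling. At 100 to 1000 TPM 17.3% of 1471 genes were higher and 26% lower, while as deposited alone 34.8% were higher and 26% lower. In the top class of 73 genes at 1000 TPM or more, 12 were higher and 36 lower (49.3%). As deposited these counts were 18 and 36, and after median-ratio scaling 12 and 39. Low classes include genes that passed the filter only through the tissue where they were high. Among genes at 1 TPM or more in all 6 libraries the class at 1 to 10 TPM had 744 higher and 707 lower of 9615 under both scalings. The class at 100 to 1000 TPM still had 241 higher and 371 lower of 1446, and the top class 12 and 34 of 71. As deposited, the median log2 difference fell from 0.57 at 1 to 10 TPM to -0.87 at 1000 TPM or more, and after median-ratio scaling from 0.11 to -1.52.

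**Figure D2:**
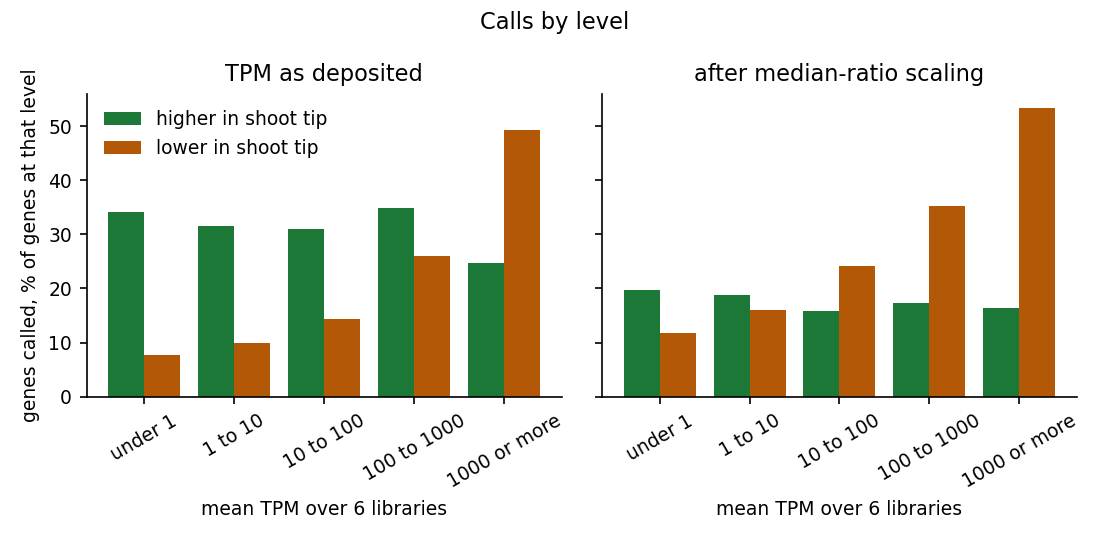
Bars give the share of genes called higher (green) or lower (orange) in shoot tip than in leaf, in percent of the genes in each class of mean TPM over the 6 libraries, as deposited and after median-ratio scaling. The share lower in shoot tip climbs with level under both scalings, to 49.3% and 53.4% at 1000 TPM or more, while the share higher does not.

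Expression in leaf rested on fewer genes. The number of genes that together hold 50% of the summed TPM was 1632, 1668 and 1620 in the shoot tip libraries and 655, 680 and 628 in the leaf libraries. All leaf values lay far under all shoot tip values. An exact two-sided permutation test gave p = 0.1, the smallest value that 3 against 3 allows. The 100 most abundant genes of a library held 16.1% ± 0.29 of its TPM in shoot tip and 30% ± 0.54 in leaf (SD, n = 3; exact permutation p = 0.1). Leaf had more genes at 1000 TPM or more, with 93, 92 and 91 against 70, 69 and 73 in shoot tip. Shoot tip had more at 10 TPM or more, with 15240 ± 49.5 against 12390 ± 78.8 in leaf (SD, n = 3).

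**Figure D3:**
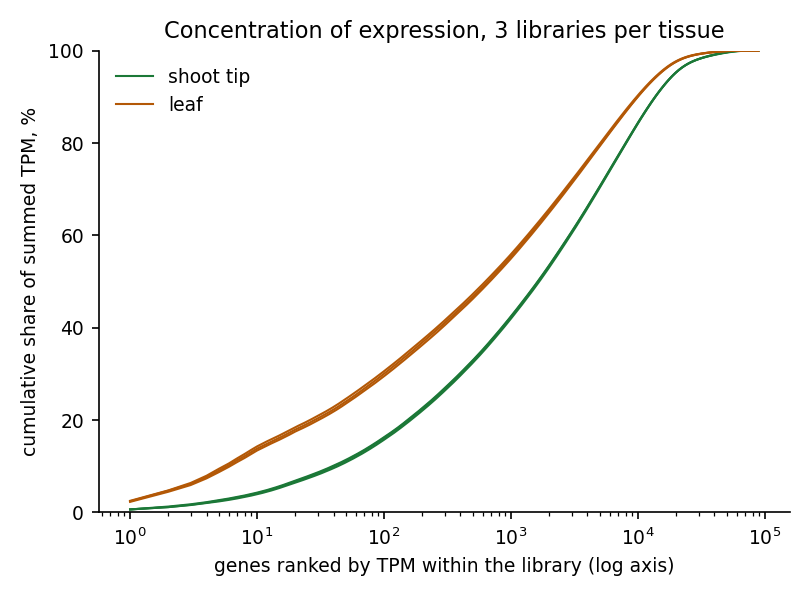
Cumulative share of the summed TPM (percent) against the rank of genes within each library (log axis), with 1 line for each of 3 shoot tip and 3 leaf libraries. The leaf lines run above the shoot tip lines until they meet near 100%, and the 3 lines of each tissue nearly coincide.

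The leading genes of leaf were much lower in shoot tip, and fewer leading genes of shoot tip were called. Of the 10 most abundant leaf genes, at 7418 to 24070 TPM, 9 were lower in shoot tip and 1 was not called. These 10 genes took up 13.8% ± 0.44 of leaf TPM but 1.86% ± 0.0065 of shoot tip TPM (SD, n = 3). Their share was 2.82% in leaf tip, 2.57% in root tip and 2.95% in root. Of the 100 leading leaf genes 84 were lower in shoot tip, 0 higher and 16 not called, with a median of 286 TPM in shoot tip. In shoot tip 70 of them reached 100 TPM, and the lowest stood at 0.0433 TPM. Among the 100 leading shoot tip genes 30 were higher than in leaf, 8 lower and 62 not called, and their median in leaf was 428 TPM. The lists of 100 shared 23 genes. Since each list was picked for its level in a tissue, its direction was partly set by that choice.

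The called genes made up a large part of all TPM. The 5821 higher genes took up 26% ± 0.097 of shoot tip TPM and 3.56% ± 0.033 of leaf TPM. The 4069 lower genes took up 8.34% ± 0.014 of shoot tip TPM and 49.8% ± 0.42 of leaf TPM (SD, n = 3 each). In the other tissues, which did not enter the choice of genes, the higher genes took up 22.6% in leaf tip, 18% in root tip and 11% in root. The lower genes took up 12.8% in leaf tip, 12.3% in root tip and 22.3% in root. Root thus lay on the leaf side of root tip for both groups.

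The 4 named genes show how such differences look in single libraries and were chosen for the largest fold and the largest TPM difference in each direction. LE_TRINITY_DN5604_c0_g1 had the largest fold higher in shoot tip. It stood at 3451.07, 3501.12 and 3506.34 TPM in shoot tip and at 1.22, 1.88 and 1.13 TPM in leaf (shoot tip minus leaf on the log2 scale 10.51, SE 0.10, adjusted p = 5e-11, limma). The tissues were separated by more than 3 orders of magnitude, although its identifier carries the leaf prefix. Leaf tip was higher still, at 4635 ± 6.08 TPM (SD, n = 3), with a log2 difference of shoot tip minus leaf tip of -0.41 (adjusted p = 0.0029, limma), under the 2-fold minimum. Root tip held 68.2 ± 2.19 TPM, and the root libraries 4.04, 3.7 and 0.76 TPM.

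LA_TRINITY_DN4088_c0_g1 had the largest TPM difference in favour of shoot tip. Its shoot tip libraries held 4316.95, 4322.43 and 4418.87 TPM and its leaf libraries 82.28, 84.38 and 80.49 TPM (log2 difference 5.71, SE 0.022, adjusted p = 1.8e-12, limma). Unlike the preceding gene it kept a clear level in leaf. It was high in each tip, with 3693 ± 12.2 TPM in leaf tip and 2352 ± 15.6 in root tip (SD, n = 3), while root held 1.58, 1.66 and 5.55 TPM. Its difference between tip and mature organ was larger in root (log2 shoot tip minus leaf against root tip minus root -3.66, adjusted p = 4.7e-06, limma).

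LA_TRINITY_DN4483_c0_g1 had the largest fold lower in shoot tip. It stood at 0.12, 0.49 and 0.38 TPM in shoot tip and at 4105.92, 4079.51 and 3972.2 TPM in leaf (log2 difference -11.58, SE 0.093, adjusted p = 2.3e-11, limma). Leaf tip lay between them at 16.89, 19.42 and 19.69 TPM, closer to shoot tip, and differed from it (log2 shoot tip minus leaf tip -3.89, adjusted p = 3.1e-10, limma). The gene was listed at 0 in all root tip libraries and at 0.03, 0 and 0.06 TPM in root.

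LA_TRINITY_DN22130_c0_g1 was the most abundant gene of leaf. It held 24175.4, 22904.87 and 25129.27 TPM in leaf and 555.69, 525.25 and 559.72 TPM in shoot tip (log2 difference -5.46, SE 0.039, adjusted p = 1.4e-11, limma). A lack of overlap was a condition for naming a gene, and this gene was still well expressed in shoot tip. Leaf tip was again between, at 3042 ± 31.3 TPM (SD, n = 3; log2 shoot tip minus leaf tip -2.47, adjusted p = 7.3e-12, limma). Root tip was at 0.28, 0.81 and 0.78 TPM and root at 2.55, 2.71 and 5.2 TPM.

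**Figure D4:**
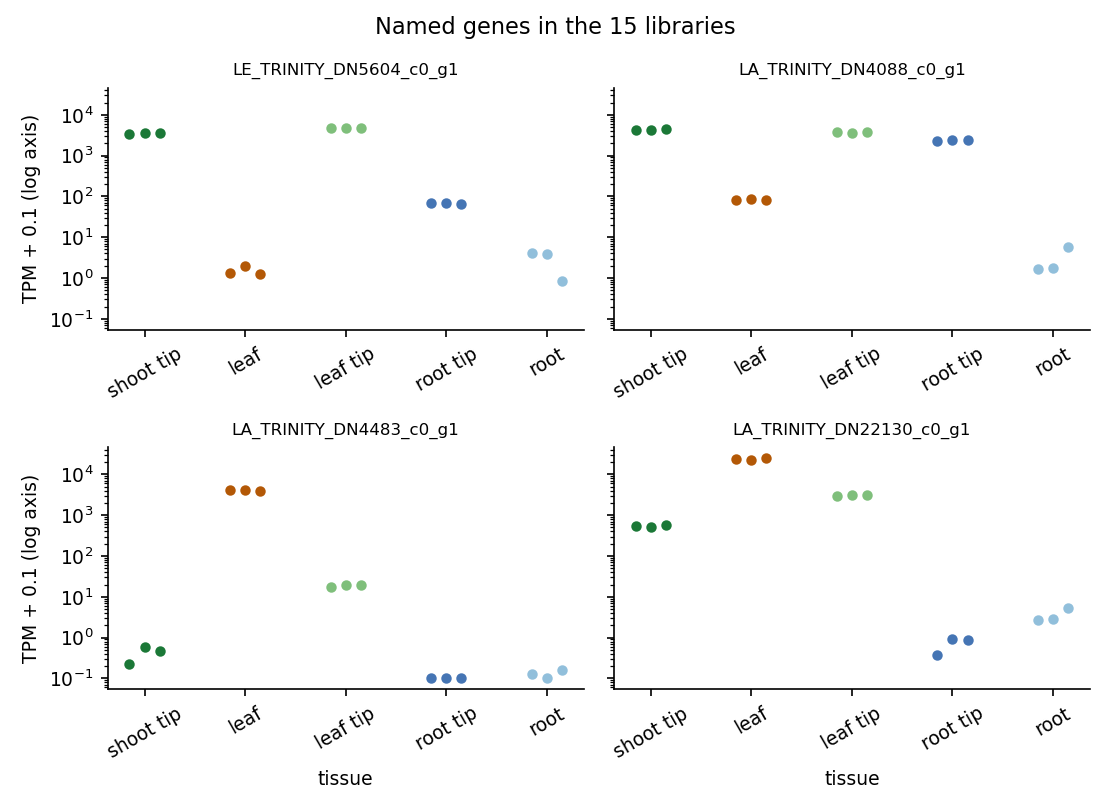
TPM + 0.1 (log axis) of the 4 named genes in all 15 libraries, with a point for each library. The upper genes are high in shoot tip and leaf tip and low in leaf, and the lower genes are high in leaf, intermediate in leaf tip and low in root tip and root.

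Leaf tip resembled shoot tip for most of these genes. Over the 5821 higher genes the median log2 difference was 2.07 for shoot tip minus leaf, 1.91 for leaf tip minus leaf and 0.12 for shoot tip minus leaf tip. Over the 4069 lower genes these medians were -1.70, -1.63 and -0.09. The comparisons of shoot tip and leaf tip with leaf share the leaf libraries, so their likeness is no independent evidence. The difference between them is shoot tip minus leaf tip, which was tested directly. Among all tested genes 6.67% were higher and 2.43% lower in shoot tip than in leaf tip under both scalings. Of the 5821 higher genes 1077 (18.5%) were also higher than in leaf tip and 72 (1.24%) were lower. Of the 4069 lower genes 512 (12.6%) were also lower than in leaf tip, and 308 (7.57%) were higher. Among shoot tip, leaf tip and leaf, the 308 genes were thus lowest in leaf tip, with shoot tip between leaf tip and leaf. With a pseudocount of 5, as deposited, the genes also higher than in leaf tip changed from 1412 to 462 and those also lower from 518 to 255. For the lower genes a pseudocount of 0.1 turned the order, from 518 also lower and 340 higher than in leaf tip to 775 and 788. As deposited, shoot tip exceeded leaf tip in 7.54% of all tested genes and was lower in 2.45%. These shares reuse the shoot tip libraries that chose the genes.

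Most genes higher in shoot tip than in leaf had their highest level in shoot tip or leaf tip, and most lower genes had it in leaf or root. For each gene the tissue with the highest mean TPM as deposited was found. Among the higher genes it was shoot tip for 2508 (43.1%), leaf tip for 2246 (38.6%), root tip for 724 (12.4%) and root for 343 (5.89%). Among all tested genes it was leaf tip for 28.8%, root for 20.9%, shoot tip for 20.8%, root tip for 15.2% and leaf for 14.4%. Among the lower genes it was leaf for 2853 (70.1%) and root for 965 (23.7%), with 164 in root tip and 87 in leaf tip. By the choice of genes, leaf could not be highest for a higher gene, nor shoot tip for a lower gene. That choice partly set these shares, so they are not free to match those of all tested genes. The median level of the higher genes in TPM was 12.2 for shoot tip, 10.3 for leaf tip, 7.16 for root tip, 1.52 for root and 0.91 for leaf. For the lower genes the order of medians was leaf at 21.3 TPM, root at 9.82, root tip at 6.01, shoot tip at 4.24 and leaf tip at 4.07. The spread of genes was wide: the middle 50% of the higher genes lay between 4.43 and 33.6 TPM in shoot tip, and of the lower genes between 7.05 and 62.7 TPM in leaf.

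**Figure D5:**
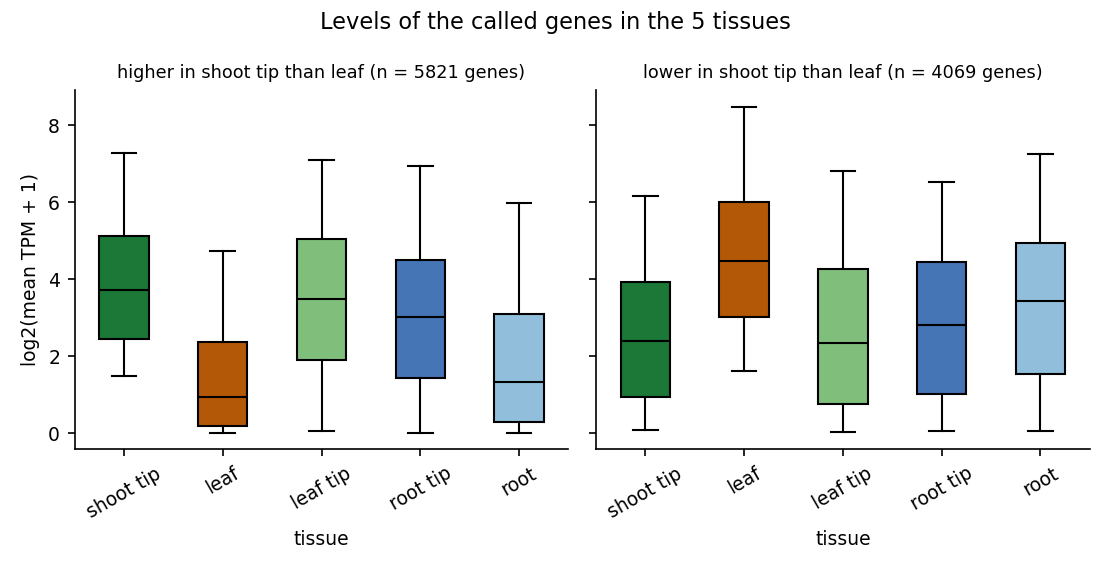
Levels of the 5821 genes higher and the 4069 genes lower in shoot tip than in leaf, as log2(mean TPM + 1) in each of the 5 tissues. Boxes span the quartiles over genes with the median as a line, and whiskers reach the 5th and 95th percentiles. The separation of shoot tip from leaf was fixed by the choice of genes, and for the higher genes leaf tip and root tip lie with shoot tip and root with leaf.

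Root tip and root, which are other libraries, differed in many of the same genes. Under both scalings 16.2% of the tested genes were called higher and 10.5% called lower in root tip than in root. Of the genes higher in shoot tip 2616 were also higher in root tip, which is 44.9% of the shoot tip list and 48.8% of the root tip list. Of the lower genes 1180 were lower in root tip too, 29% of the shoot tip list and 34% of the root tip list. Opposite calls were made for 301 genes higher in shoot tip and lower in root tip (5.17% of the higher genes) and for 413 in the reverse direction (10.1% of the lower genes). As deposited, the former count was 507, and it became 1230 with a pseudocount of 0.1 and 148 with one of 5. With a pseudocount of 5, as deposited, the shared genes changed from 4224 to 2081 higher and from 1180 to 576 lower in both tips. With the pseudocount of 1, as deposited, 20.6% of all tested genes were called higher and 10.5% lower in root tip than in root. The shares of all tested genes with a pseudocount of 5 are not given. The median log2 difference of root tip minus root, as deposited, was 1.05 for the higher genes and -0.26 for the lower genes, beside 0.17 for all tested genes.

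Many genes nevertheless differed in the size of their change between shoot and root. The interaction, shoot tip minus leaf against root tip minus root, was called for 10269 genes (31.1%) under both scalings. It was positive for 5460 genes (16.6%) and negative for 4809 (14.6%). The balance turned with the scaling, from 7990 positive and 4809 negative as deposited (38.8% called) to 5460 and 6432 after median-ratio scaling (36.1% called). The interaction contains the difference by which the called genes were chosen, which partly fixes its sign among them. Among the genes higher in shoot tip, 2737 had a positive interaction, and 1448 were higher in root tip too with no interaction called under either scaling. Among the lower genes 2559 had a negative interaction, and 677 were lower in root tip with no interaction called. A missing call does not show equal changes. The shares of all tested genes that meet the conditions of the 1448 and 677 genes are not given. Root replicate 3 correlated at 0.977 with each of the other root libraries, which correlated at 0.994 with each other. As deposited, leaving it out changed the genes higher in both tips from 4224 to 4183 and those lower in both from 1180 to 1208.

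The genes past 64-fold under both scalings were followed into the other tissues. Of the 52 higher genes, with a median of 188 TPM in shoot tip and 0.238 in leaf, 45 reached 10 TPM in leaf tip, 36 in root tip and 8 in root. Their medians were 128 TPM in leaf tip, 31.5 in root tip and 0.412 in root, and 13 of them were under 1 TPM in root tip. Among all tested genes 45.1% reached 10 TPM in leaf tip, 44.9% in root tip and 40% in root. The 62 lower genes had a median of 287 TPM in leaf and 0.768 in shoot tip. Of these, 18 reached 10 TPM in leaf tip and 11 in root tip, and 28 did so in root. Their medians were 1.22 TPM in leaf tip, 0.71 in root tip and 4.38 in root. The 52 genes averaged at least 82 TPM in shoot tip and the 62 genes at least 74.9 TPM in leaf. The shares over all tested genes are therefore not matched to them for level.

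Some genes were listed in a single tissue of the pair. At 1 TPM or more in all shoot tip libraries and listed at 0 in all leaf libraries were 528 genes, with a median of 2.35 TPM. The reverse held for 81 genes, with a median of 2.53 TPM. A value of 0 may come from a failed estimate or from a low level. Zeros were commoner in leaf over the whole table. Of 88641 genes, 29559 to 30691 were listed at 0 in a leaf library and 18929 to 24398 in a shoot tip library. How far these zeros account for the counts of 528 and 81 was not tested. Most of the 528 and 81 genes were low, and 41 of the 528 and 14 of the 81 averaged 10 TPM or more. Of the 528 genes 163 (30.9%) averaged at least 1 TPM in leaf tip, 127 (24.1%) in root tip and 60 (11.4%) in root, while 281 (53.2%) were under 1 TPM in all of these. Of the 81 leaf genes 59 (72.8%) were under 1 TPM in the other tissues, 18 (22.2%) reached it in root and 3 (3.7%) each in leaf tip and root tip. Of the 88641 genes, 32023 to 32429 reached 1 TPM in a leaf tip library. In a root tip library 30022 to 30082 did so, and in a root library 32121 to 35035.

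Calls rested in part on genes that entered through a single tissue. At 1 TPM or more in all 6 libraries were 23709 genes, of which 2645 were higher and 2871 lower under both scalings. Another 5025 genes passed only through the shoot tip libraries and 1283 only through the leaf libraries. Such genes had to differ in the given direction, and 2826 of the former were called higher and 947 of the latter lower. The 6703 genes at 1 TPM or more in exactly 3 libraries had median levels of 1.79 TPM in shoot tip and 0.463 in leaf. The 2394 genes just outside, with 2 such libraries, had 1.05 and 0.367 TPM. Among the 55660 genes that did not pass, 13100 were listed at 0 in all 6 libraries.

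The direction of the calls moved with the identifier prefix. Of the 7819 tested genes with the shoot tip prefix 28.4% were higher and 5.33% lower in shoot tip under both scalings. Of the 5104 genes with the leaf prefix 4.55% were higher and 31.4% lower. Genes with the leaf tip prefix lay nearer to those of shoot tip, with 21.1% higher and 7.76% lower of 8247. The 5744 root tip prefixed genes had 17.8% higher and 9.4% lower, and the 6067 root prefixed genes 9.94% and 14.3%. The part of the prefix in these results was not tested. Without the shoot tip and leaf prefixes, an alternative chosen after seeing the data, 3248 of 20058 genes were higher and 2050 lower under both scalings.

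Called genes of related sequence mostly went the same way and sometimes went opposite ways. Trinity places contigs that share sequence in a cluster, so that genes of a cluster may be copies, alleles or parts of a gene, and reads shared between them make single values uncertain. Clusters with at least 2 tested genes numbered 1293, and 215 of them held at least 2 genes called under both scalings. In 108 of the 215 all called genes were higher in shoot tip and in 78 all were lower. The remaining 29 (13.5%) held calls in both directions, and in 16 of these a gene of each direction reached 10 TPM in its higher tissue. Among all tested genes 17.6% were higher and 12.3% lower under both scalings.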

How the data were processed

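Per the labels' protocols, TRIzol was used for RNA extraction and standard Illumina protocols for the libraries. Among the tools in the submitters' processing notes are RSEM 1.3.2, Bowtie2 2.3.4.3 and Trim Galore 0.5.0, whose settings and reference are not given in the sources used here. The authors deposited 1 table of TPM values, with 2 decimals and no counts. Depth is therefore unknown, and no counting interval was given.

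Columns were joined to samples by description. The leaf columns carry a leaf code and a number, but their names equal no leaf sample's description, so they were joined to the leaf group and given no replicate number. In R 4.3.3, limma 3.58.1 was run on log2(TPM + 1) values (empirical Bayes, intensity trend, Benjamini-Hochberg adjustment over 32981 genes). The 6 shoot tip and leaf libraries entered the main model, with 4 residual degrees of freedom. Leaf tip was tested in a model of 9 libraries and root in one of 12, on the same genes. Median-ratio factors came from genes above 0 in every library of a model. The models were also run on simulated data in which few genes changed. That run could not check calls where many genes differ, as they do here. Named genes are the largest fold and the largest TPM difference in each direction among genes called under both scalings, with a higher tissue at 10 TPM or more on average and no overlap of replicates. The genes and groups were chosen with earlier results of these data known. Figures were drawn with matplotlib 3.10.9.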

Additional observations from a re-analysis of the deposited data

How the results depend on the processing

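The calls as deposited were 10410 higher and 4069 lower in shoot tip than in leaf (71.9% higher), and 5821 and 4069 under both scalings. Median-ratio scaling gave 5821 higher, 6578 lower and 46.9% higher, and quantile normalization 5839, 6282 and 48.2%, which turned the balance. Rescaling without the 100 most abundant genes in the total gave 8143, 4916 and 62.4%. A pseudocount of 5 gave 5272 higher and 2498 lower, and 2739 and 2498 under both scalings. A mean of at least 5 TPM left 6416 higher, and 3715 under both. A 4-fold minimum left 3122 higher and 1515 lower, and 2038 and 1515 under both. Without the shoot tip and leaf prefixes 6314 were higher and 2050 lower, and 3248 and 2050 under both. The cause of these moves was not tested, apart from the fewer genes that a filter, a higher minimum or fewer prefixes leave.

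Leaving out each library in turn gave 10308 to 10546 higher and 4043 to 4080 lower, a share of 71.6% to 72.3%, and 5744 to 5906 and 4043 to 4080 under both scalings. The leaf excess in the 10, 100 and 1000 most abundant genes ranged from 9.49 to 9.93, 13.7 to 14.3 and 12.9 to 13.4 percentage points. The counts of genes higher and lower in shoot tip than in leaf stayed within 1.5-fold with a pseudocount of 0.1, no filter, no trend, array weights, 15 libraries in the model, and limma's treat test. The 4 named genes kept direction and call in all of 18 to 19 alternatives, with adjusted p up to 1.1e-08 (limma). They were chosen as extreme genes already called under both scalings, which partly set this outcome.

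As deposited 1412 of the higher genes were also higher than leaf tip and 518 of the lower genes also lower. A pseudocount of 5 gave 462 and 255. Genes lower than leaf but higher than leaf tip changed from 340 to 788 with a pseudocount of 0.1 (775 also lower) and to 112 with 5. Genes higher in both shoot tip and root tip numbered 4224, and genes lower in both 1180. After median-ratio scaling these were 2616 and 2099, and with a pseudocount of 5 they were 2081 and 576. The interaction, positive for 7990 and negative for 4809 genes, fell to 3660 and 3184 with a pseudocount of 5, and without root replicate 3 it was 8458 and 4838. After median-ratio scaling it was 5460 and 6432, which turned its balance.

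No paired analysis was possible because the numbered leaf columns equal no leaf sample's description and could not be joined to single samples, and the model with a block was not run. The unknown depth leaves the precision of low values open to no estimate beyond the spread of replicates.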
